A study of Mus musculus with 9 samples.

Results

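The genes described here are 42 chaperones, folding enzymes, stress transcription factors and degradation factors of the unfolded protein response and the heat shock response, taken as a named list and followed through every probe that carries their symbol. A probe was present in the tables used for 33 of the 42 genes, and 28 genes were measured, meaning that a probe was detected (detection p under 0.01) on at least 3 of the 9 arrays. In all, 9842 of the 15964 genes with a probe were measured. The arrays held total RNA of confluent glial cultures grown from mouse pups of postnatal day 1 to 3, with 3 nontransgenic, 3 SOD1-G93A and 3 SOD1-WT cultures, called biological replicates. SOD1-G93A mice (B6SJL-Tg(SOD1*G93A)2Gur/J) carry a mutant form of superoxide dismutase 1 that causes motor neuron disease, SOD1-WT mice (B6SJL-Tg(SOD1)2Gur/J) carry the unmutated form, and the nontransgenic pups are labelled B6SJL 2Gur/J. All cultures had their meninges stripped off before dissociation and grew in the same medium with 10% horse serum. The labels give neither the sex of the pups, nor whether replicates came from separate litters, nor the promoter of the transgenes, so the p-values measure the spread between these cultures. The comparisons ask which of the stress genes differ in glia with the mutant protein, which differ in glia with the unmutated protein, and where the 2 transgenic lines part.

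Unfolded proteins in the endoplasmic reticulum (ER) are sensed by IRE1 (Ern1), PERK (Eif2ak3) and ATF6. IRE1 splices the Xbp1 mRNA and PERK favours translation of ATF4, whereas ATF6 is cut to a transcription factor, and between them they raise ER chaperones, genes of ER-associated degradation and the transcription factor CHOP (Ddit3). Misfolded proteins in the cytosol release HSF1, which raises the cytosolic heat shock proteins and small heat shock proteins. Since IRE1, PERK and ATF6 act through splicing, phosphorylation and cleavage, the mRNA levels given here do not show their activity.

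Of the other 14 genes, 9 are not analysed here (Eif2ak3, Dnajb9, Dnajb11, Hspa1a, Hspa1b, Hspa8, Hsp90ab1, Hsf1 and Hspe1), among them the inducible and constitutive cytosolic HSP70 genes and HSF1 itself. Another 5 had only probes below the detection filter (Ern1, Dnajc3, Calr, Canx and Dnaja1). Canx was detected on 1 of 9 arrays and the remaining 4 on 0 of 9. The 28 measured genes had 31 kept probes, and Atf4, Hsp90aa1 and Hspd1 had more than 1. The probe with the highest mean over the 9 arrays stands for a gene. Levels are log2 intensities after background correction and scaling, and are compared between arrays for 1 probe only.

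The array of SOD1-WT replicate 3 stood apart from the rest. Its mean raw intensity was 280 against 211 to 236 on the other 8 arrays, its median bead standard error was 6.84% against 5.08 to 5.23%, and its correlation with its own group was at most 0.989, where the other groups reached 0.995. Among the 42 genes, each call that was gained or lost when this array was left out is given with and without it. Of 9 measured astrocyte markers, 5 were higher and 1 lower in SOD1-WT glia, and 2 in each direction passed in SOD1-G93A glia. Their changes ran from -0.78 to 0.98 log2 in SOD1-WT glia and from -0.50 to 0.76 in SOD1-G93A glia. Their summed levels were 21066 to 22717 in nontransgenic glia, 24395 to 26103 in SOD1-G93A glia, and 26829 to 29115 in SOD1-WT glia. Markers of fibroblasts and meninges were also present although the meninges had been stripped. Of 13 measured markers in that list of 14, 13 were lower in SOD1-WT than in nontransgenic glia, while 2 were higher and 6 lower in SOD1-G93A glia. Their summed level was 34639 to 36686 in nontransgenic glia, 27153 to 28554 in SOD1-G93A glia, and 6392 to 7736 in SOD1-WT glia, and Foxc1 was detected on no array. Of 10 measured microglial markers, 1 was higher and 1 lower in SOD1-WT glia, and 1 was higher and 2 lower in SOD1-G93A glia, where 27% and 11.4% of all measured genes passed. Of 6 measured markers of ependyma and choroid plexus, 4 were higher and 1 lower in each line, with summed levels of 1595 to 2308 in nontransgenic glia, 2066 to 2629 in SOD1-G93A glia, and 3847 to 3965 in SOD1-WT glia. Their changes ran from -1.88 to 2.93 log2 in the mutant line and from -4.45 to 2.47 in SOD1-WT glia. Of 8 measured oligodendrocyte markers, 1 was higher and 2 lower in SOD1-WT glia, and 2 in each direction passed in SOD1-G93A glia. Of 5 listed sex-linked genes, 3 had a probe and 1 was measured, the Y-linked Kdm5d, while Y-linked Uty was detected on no array. The probe of Kdm5d was at 117 to 131 on the SOD1-WT arrays. On the other arrays it was at 17.5 to 18.2, not well above background. Genotype and this sex-linked signal, which rests on 1 gene, therefore cannot be told apart in comparisons with SOD1-WT glia. The endogenous Sod1 probe, which need not read a human transgene, was 0.17 log2 higher in SOD1-G93A glia (adjusted p = 0.396) and 0.33 higher in SOD1-WT glia (adjusted p = 0.0338), a call lost under 8 of 19 alternatives, among them without any single SOD1-WT array and without nontransgenic replicate 2 or 3. In bulk RNA, fewer cells of a type and less RNA per cell cannot be told apart, and the part of these cell type markers in the results below was not tested.

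Few of the 28 genes differed in the mutant line, and those that differed in either line did not move as 1 block. In SOD1-G93A against nontransgenic glia, 1 of 28 genes passed an adjusted p of 0.05 in the limma fit, the ER folding enzyme Pdia4, which was higher; 11.4% of all measured genes passed in that comparison (5.21% higher and 6.22% lower). In SOD1-WT against nontransgenic glia, 7 of 28 passed, with Pdia4, Hsph1 and Hspb8 higher and Atf4, Ddit3, Trib3 and Hspb1 lower, where 27% of all measured genes passed (14% higher and 13% lower). In SOD1-G93A against SOD1-WT glia, 2 of 28 passed, Atf4 higher and Hsph1 lower, where 16.4% of all measured genes passed (7.59% higher and 8.86% lower). Both comparisons of the transgenic lines with nontransgenic glia use the same 3 nontransgenic arrays, so the comparisons are not independent of each other. Thus 7 of the 28 genes passed somewhere and 21 passed in none, against 32.0% of all measured genes that passed at least once. The share in SOD1-WT glia was near the background, and that in SOD1-G93A glia was below it. Without SOD1-WT replicate 3, 3 of the 28 genes passed in SOD1-G93A glia (Hspa5, Creld2 and Pdia4, all higher), where 14.3% of all measured genes passed. In SOD1-WT glia 8 passed without it, where 26.6% of all measured genes passed, with Hspa5, Creld2 and Hsp90aa1 gained and Atf4 and Trib3 lost. The summed level of the meningeal markers was lowest in SOD1-WT glia, where most of the calls lay, and its part in them was not tested.

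The sizes were small throughout. The median change of the 28 genes was -0.01 in SOD1-G93A glia and -0.0052 in SOD1-WT glia, against 0.01 and 0.00075 over all measured genes. Without a sign, the median was 0.11 in SOD1-G93A glia and 0.18 in SOD1-WT glia, against 0.12 and 0.18 over all genes. The 3 arrays of each group did not overlap for 9 of 28 genes in SOD1-G93A against nontransgenic glia (30.8% of all genes), for 12 in SOD1-WT against nontransgenic glia (39.5%) and for 8 in SOD1-G93A against SOD1-WT glia (32.5%). A difference of 1.5-fold or more was seen for 1 of 28 genes in SOD1-G93A, 3 in SOD1-WT and 1 between the lines. Over all 9842 measured genes the counts were 539, 1235 and 777. The median half-width of the 95% interval of a difference was 0.26 log2 for the 28 genes, which limits how small a shift could be told from 0 with 3 arrays a group. Replicates of these genes had a median SD of 0.15 within a group, close to the 0.14 of all measured genes.

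**Figure D1:**
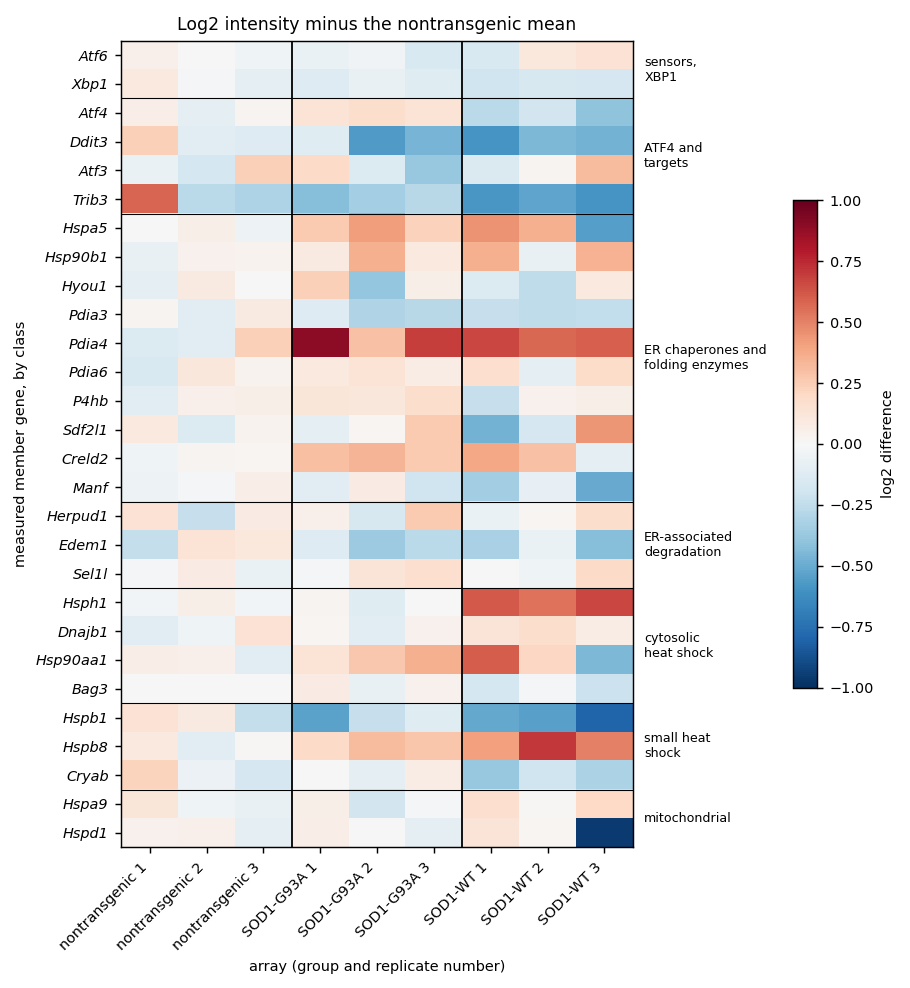
Log2 intensity of each measured gene (rows, by class) on each of the 9 arrays (columns), as the difference from the nontransgenic mean of that gene. Pdia4 is above that mean on all 6 transgenic arrays, Hsph1 is high on the 3 SOD1-WT arrays, and SOD1-WT replicate 3 stands apart from its group for Hspa5, Creld2, Hsp90aa1 and Hspd1.

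Of the sensors only Atf6 was measured, and neither Atf6 nor Xbp1 showed a difference past the threshold in the limma fit. Of these 2 measured genes, 0 reached even an unadjusted p of 0.05. Atf6, the sensor that is cut in the Golgi, lay between 4.71 and 5.01 on all 9 arrays, and its differences were between -0.12 and 0.03. The lowest detected signal of the arrays was 4.56 to 4.64, so Atf6 was near background and its narrow range says little. Xbp1, whose spliced mRNA encodes the transcription factor made after IRE1 acts, was at 10.91, 10.80 and 10.72 in nontransgenic glia, 10.68, 10.74 and 10.69 in SOD1-G93A glia, and 10.61, 10.65 and 10.64 in SOD1-WT glia. The SOD1-WT arrays lay below all others, and the SOD1-G93A arrays overlapped the lowest nontransgenic one. Its change was -0.18 ± 0.09 (SE) in SOD1-WT glia (adjusted p = 0.187) and -0.11 ± 0.09 in SOD1-G93A glia (adjusted p = 0.577). Whether its probe tells the spliced from the unspliced form was not tested.

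ATF4 and its targets were the class with most calls in SOD1-WT glia. There 3 of the 4 measured genes were lower and none higher, where 27% of all measured genes passed (13% lower). Without nontransgenic replicate 1 all 3 calls were lost (limma adjusted p = 0.140 for Atf4, 0.0596 for Ddit3 and 0.0798 for Trib3). The calls of Atf4 and Trib3 were also lost without SOD1-WT replicate 3. The class median was -0.39 in SOD1-WT glia. In SOD1-G93A glia it was -0.23, with 0 of 4 past the threshold (1 at an unadjusted p under 0.05). Atf4, the transcription factor that PERK and its sister kinases favour, was at 9.52, 9.35 and 9.47 in nontransgenic glia, 9.58, 9.62 and 9.58 in SOD1-G93A glia, and 9.17, 9.26 and 9.04 in SOD1-WT glia. The 3 groups did not overlap, with SOD1-G93A highest and SOD1-WT lowest. Atf4 was 0.43 ± 0.10 higher in SOD1-G93A glia than in SOD1-WT glia (1.35-fold, adjusted p = 0.00675) and 0.29 ± 0.10 lower in SOD1-WT than in nontransgenic glia (adjusted p = 0.0444), while SOD1-G93A against nontransgenic glia gave 0.15 (adjusted p = 0.427). A second Atf4 probe gave 0.28 between the lines (adjusted p = 0.286), -0.15 in SOD1-WT and 0.13 in SOD1-G93A glia, with groups that overlapped. The difference between the lines passed under all 19 alternatives with the first, brighter probe, at adjusted p from 0.00199 to 0.0407. That between SOD1-WT and nontransgenic glia passed under only 7 of 19 (adjusted p 0.0147 to 0.140), and was lost without nontransgenic replicate 1 or 3, without any single SOD1-G93A array, and without SOD1-WT replicate 1 or 3. Without SOD1-WT replicate 3 it was -0.22 (adjusted p = 0.121).

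Ddit3, which encodes CHOP, a factor tied to cell death under lasting ER stress, was at 7.98, 7.64 and 7.62 in nontransgenic glia, 7.63, 7.18 and 7.28 in SOD1-G93A glia, and 7.16, 7.30 and 7.28 in SOD1-WT glia. All SOD1-WT arrays lay below the nontransgenic ones, while SOD1-G93A replicate 1 lay among them. Ddit3 fell by 0.50 ± 0.13 in SOD1-WT glia (1.42-fold lower, adjusted p = 0.0114). In SOD1-G93A glia its change was -0.39 ± 0.13 (adjusted p = 0.0845), and it passed only without SOD1-G93A replicate 1 (-0.52, adjusted p = 0.0289, where the alternatives spanned 0.0289 to 0.318). Without nontransgenic replicate 1 the change in SOD1-WT glia was -0.39 (adjusted p = 0.0596, the highest of 19 alternatives, whose lowest was 0.00648). The lines themselves differed by 0.12 (95% interval -0.16 to 0.40), so that no difference between them was detectable.

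Trib3, a pseudokinase raised by ATF4 and CHOP, was at 6.33, 5.47 and 5.44 in nontransgenic glia, 5.32, 5.41 and 5.47 in SOD1-G93A glia, and 5.16, 5.21 and 5.16 in SOD1-WT glia. Nontransgenic replicate 1 was far above all other arrays, and the SOD1-WT arrays lay below the rest. The fall of 0.57 ± 0.18 in SOD1-WT glia (adjusted p = 0.034) was not past the threshold without that replicate, at -0.28 (adjusted p = 0.0798). The call was also lost without any single SOD1-WT array (-0.55 without replicate 3, adjusted p = 0.0628), and in 9 of 19 alternatives in all (adjusted p 0.0145 to 0.136). The same replicate moved the class median to -0.26 in SOD1-WT and to -0.10 in SOD1-G93A glia when left out. Atf3, a stress-induced repressor, varied within groups between 6.54 and 7.23, with changes of -0.11 in SOD1-G93A glia and 0.07 in SOD1-WT glia. A stretch after the start of Trib3 is shown because it holds letters of the element bound by ATF4 with CHOP (in capitals, TGATGNAAN on the other strand); it is from RefSeq, GRCm38.p6, chr2:152344029-152344058, minus strand.
Trib3: attagctcaggTTTACATCAgccgggcggg
Those letters were found on either strand in the promoter windows of 3 of 33 listed genes with a window (Atf3, Trib3 and Herpud1, 9.09%) and of 4.50% of 27025 genes, a window running from 250 bases before to 50 after the start.

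Of the ER chaperones and folding enzymes, 10 of 15 genes were measured. Pdia4 was the 1 gene that rose in either line with all arrays, and the class median was 0.12 in SOD1-G93A glia and 0.02 in SOD1-WT glia (-0.03 without SOD1-WT replicate 3 and -0.02 without SOD1-WT replicate 2). Pdia4, a protein disulfide isomerase that helps form disulfide bonds in the ER, was at 8.82, 8.85 and 9.19 in nontransgenic glia, 9.85, 9.25 and 9.65 in SOD1-G93A glia, and 9.62, 9.52 and 9.55 in SOD1-WT glia. All 6 transgenic arrays lay above the 3 nontransgenic ones, and the transgenic groups overlapped. Pdia4 rose by 0.63 ± 0.15 in SOD1-G93A glia (1.55-fold, adjusted p = 0.0116) and by 0.61 ± 0.15 in SOD1-WT glia (1.53-fold, adjusted p = 0.00616), and the lines differed by 0.01 (95% interval -0.30 to 0.33). In SOD1-WT glia it passed under all 19 alternatives (adjusted p 0.00207 to 0.0352). In SOD1-G93A glia it passed under 14 of 19 (adjusted p 0.00237 to 0.0654), and was lost without SOD1-G93A replicate 1 or 3, without nontransgenic replicate 1 or 2, and with no filter on dim probes.

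Hspa5, which encodes BiP, the main ER chaperone and the common readout of ER stress, was at 8.40, 8.46 and 8.36 in nontransgenic glia, 8.66, 8.82 and 8.63 in SOD1-G93A glia, and 8.85, 8.76 and 7.85 in SOD1-WT glia. The SOD1-G93A arrays and SOD1-WT replicates 1 and 2 lay above all nontransgenic arrays, whereas SOD1-WT replicate 3 lay below all of them. With all arrays its changes were 0.30 ± 0.20 in SOD1-G93A glia (adjusted p = 0.427) and 0.08 ± 0.20 in SOD1-WT glia (adjusted p = 0.811). Without SOD1-WT replicate 3 they were 0.30 ± 0.09 (adjusted p = 0.0441) and 0.40 ± 0.10 (adjusted p = 0.0108), each the lowest of 19 alternatives, whose highest were 0.679 and 0.915. Creld2, a secreted ER stress protein, had the same layout: 8.90, 8.98 and 8.96 in nontransgenic glia, 9.25, 9.28 and 9.21 in SOD1-G93A glia, and 9.33, 9.24 and 8.85 in SOD1-WT glia. Only SOD1-WT replicate 3 of the transgenic arrays was not above the nontransgenic range. Its changes were 0.30 ± 0.12 in SOD1-G93A glia (adjusted p = 0.145) and 0.19 ± 0.12 in SOD1-WT glia (adjusted p = 0.273). Without that array they were 0.30 ± 0.08 (adjusted p = 0.0321; alternatives to 0.314) and 0.34 ± 0.09 (adjusted p = 0.0182; alternatives to 0.624). Creld2 in SOD1-G93A glia also passed with array weights (adjusted p = 0.0487) and with only the 6 arrays compared (adjusted p = 0.0402).

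The remaining 7 ER chaperones and folding enzymes did not pass in the 9-array fit, and 3 of them passed in SOD1-WT glia under some alternatives. Hsp90b1 (GRP94) was 0.18 higher in SOD1-G93A glia and 0.21 higher in SOD1-WT glia (adjusted p = 0.473 and 0.262), the latter 0.35 without SOD1-WT replicate 2 (adjusted p = 0.0453; alternatives to 0.570). P4hb, the founding disulfide isomerase, gave 0.13 and -0.04. Pdia3, which works with the lectin chaperones, gave -0.24 and -0.25 (adjusted p = 0.156 and 0.0797), with all 6 transgenic arrays at 9.94 to 10.11, below the nontransgenic 10.13 to 10.33. In SOD1-WT glia Pdia3 passed with an offset of 50 (adjusted p = 0.027), no filter (0.0414) and a variance trend (0.0465), the alternatives running to 0.221. Manf, a secreted protein induced by ER stress, was detected on 6 of 9 arrays and gave -0.08 and -0.31 (adjusted p = 0.8 and 0.0724), the latter -0.43 without SOD1-WT replicate 2 (adjusted p = 0.0197; alternatives to 0.216). Pdia6, Hyou1 and Sdf2l1, a disulfide isomerase, a large HSP70 of the ER and a partner of BiP, had changes between -0.10 and 0.10 with all arrays, and Sdf2l1 spread from 5.62 to 6.54 within SOD1-WT glia. Without SOD1-WT replicate 3 the changes there were -0.32 for Sdf2l1 (adjusted p = 0.101) and -0.19 for Hyou1 (adjusted p = 0.401). Averaged over the 10 genes as differences from the nontransgenic means, the SOD1-G93A arrays were at 0.17, 0.11 and 0.14, the SOD1-WT arrays at 0.06, 0.03 and 0.03, and the nontransgenic arrays between -0.05 and 0.05.

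**Figure D2:**
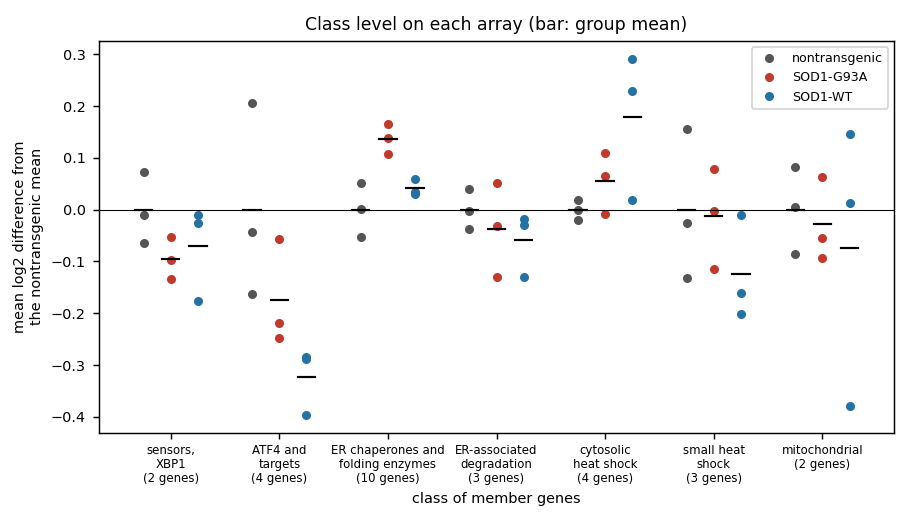
Mean log2 difference from the nontransgenic mean over the measured genes of each class (x axis), with 1 point per array and a bar at each group mean. The ER chaperones of the SOD1-G93A arrays lie at 0.11 to 0.17, and the ATF4 class of the SOD1-WT arrays lies between -0.40 and -0.28, below the other 6 arrays.

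Promoter sequences are shown for the 4 measured genes with the ER stress response element, which ATF6 binds together with the factor NF-Y, because they mark the ER chaperones that the sensors are known to raise. The letters searched were CCAAT and CCACG with 9 bases of any kind between them, on both strands, and are in capitals. The sequences are from RefSeq (GRCm38.p6) and end 1 base before the start: Hspa5 chr2:34771940-34772089 (plus strand), Hsp90b1 chr10:86705445-86705694 (minus strand, with 2 matches), Creld2 chr15:88819496-88819645 (plus strand) and Pdia6 chr12:17266439-17266588 (plus strand).
Hspa5: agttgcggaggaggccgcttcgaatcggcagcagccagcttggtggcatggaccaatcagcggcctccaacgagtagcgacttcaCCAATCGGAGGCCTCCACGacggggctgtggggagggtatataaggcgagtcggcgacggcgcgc
Hsp90b1: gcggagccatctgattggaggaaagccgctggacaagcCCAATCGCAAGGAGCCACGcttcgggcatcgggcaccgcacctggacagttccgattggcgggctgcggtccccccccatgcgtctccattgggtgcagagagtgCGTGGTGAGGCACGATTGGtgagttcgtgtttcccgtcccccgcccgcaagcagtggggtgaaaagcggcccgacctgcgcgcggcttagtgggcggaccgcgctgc
Creld2: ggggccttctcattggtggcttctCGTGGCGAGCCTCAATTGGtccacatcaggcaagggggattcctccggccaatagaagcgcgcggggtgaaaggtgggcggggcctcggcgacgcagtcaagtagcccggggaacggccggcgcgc
Pdia6: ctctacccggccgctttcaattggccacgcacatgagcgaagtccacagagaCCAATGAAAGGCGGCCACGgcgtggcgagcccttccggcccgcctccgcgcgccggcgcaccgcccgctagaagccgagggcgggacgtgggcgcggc
The element was found in 7 of 33 listed genes with a window (21.2%; Dnajc3, Calr and Canx besides these 4) and in 37 of 27025 genes (0.137%). With all 9 arrays none of the 4 measured genes with the element passed in any comparison, and Hspa5 and Creld2 passed against nontransgenic glia without SOD1-WT replicate 3. The window of Pdia4, the one ER gene that passed, held none of the letters searched, which says only that they are not in that window. The UPR element TGACGTGG, searched on both strands, was in 0 of 33 listed genes and in 0.714% of all genes.

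The 3 measured genes of ER-associated degradation did not pass in the 9-array fit, with 0 of 3 at an unadjusted p under 0.05 in limma, and their class medians were 0.05 in SOD1-G93A glia and 0.04 in SOD1-WT glia. Without nontransgenic replicate 2 the medians were -0.06 and -0.07, and without SOD1-G93A replicate 3 the former was -0.05. Herpud1, which scaffolds the ubiquitin ligase complex, lay between 7.37 and 7.86 on all arrays. Edem1, a lectin that hands over misfolded glycoproteins, gave -0.25 in SOD1-G93A glia and -0.27 in SOD1-WT glia (adjusted p = 0.271 and 0.142), the latter -0.39 without nontransgenic replicate 1 (adjusted p = 0.0451; alternatives to 0.372). Sel1l, an adaptor of the ligase HRD1, gave 0.09 and 0.05.

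Cytosolic heat shock chaperones were represented by 4 of 9 genes, of which Hsph1 separated the lines. The class median in SOD1-WT glia was 0.12, against 0.28 without SOD1-WT replicate 3 and 0.0056 without SOD1-WT replicate 1. Hsph1 encodes HSP110, a nucleotide exchange factor for HSP70, and was at 9.08, 9.17 and 9.08 in nontransgenic glia, 9.14, 8.99 and 9.11 in SOD1-G93A glia, and 9.72, 9.66 and 9.78 in SOD1-WT glia. The 3 SOD1-WT arrays lay clear of the other 6, which overlapped. Hsph1 rose by 0.61 ± 0.09 in SOD1-WT glia (1.52-fold, adjusted p = 0.00021) and was 0.64 ± 0.09 lower in SOD1-G93A glia than in SOD1-WT glia (adjusted p = 0.000234), while in SOD1-G93A glia its change was -0.03 (95% interval -0.23 to 0.17). Both calls held under all 19 alternatives, with adjusted p up to 0.00143 and 0.00223.

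Dnajb1, the HSP40 partner of HSP70, gave -0.02 in SOD1-G93A glia and 0.13 in SOD1-WT glia, and Bag3, a co-chaperone of selective autophagy, gave 0.02 and -0.13. None of those 4 values passed. Hsp90aa1, the inducible cytosolic HSP90, was at 6.33, 6.32 and 6.15 in nontransgenic glia, 6.40, 6.54 and 6.62 in SOD1-G93A glia, and 6.88, 6.47 and 5.82 in SOD1-WT glia. SOD1-WT replicate 3 was again the lowest array of its group. Its changes were 0.25 in SOD1-G93A glia (adjusted p = 0.519) and 0.12 in SOD1-WT glia (adjusted p = 0.708), and the latter was 0.40 without that array (adjusted p = 0.0333; alternatives to 0.879). A second, dimmer Hsp90aa1 probe detected on 5 of 9 arrays gave 0.14 and 0.09.

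Letters of the heat shock element, the motif of HSF1, are shown for Hsph1, a gene with a difference past the threshold, and for Hspd1, a gene with none. They are alternating GAA and TTC blocks, 3 in all, spaced by 2 bases, on both strands, with overlapping matches joined in the capitals. The stretches are from RefSeq (GRCm38.p6), Hsph1 after one of its 2 starts at chr5:149636287-149636316 (minus strand) and Hspd1 before its start at chr1:55087933-55088082 (minus strand).
Hsph1: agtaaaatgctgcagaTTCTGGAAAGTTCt
Hspd1: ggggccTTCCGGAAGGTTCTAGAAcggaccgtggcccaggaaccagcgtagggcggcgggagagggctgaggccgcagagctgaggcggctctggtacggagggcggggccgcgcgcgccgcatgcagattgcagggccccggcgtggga
The element was in 3 of 33 listed genes with a window (9.09%, Hspe1 besides these) and in 0.662% of all genes. The windows of Hspd1 and Hspe1 overlap on opposite strands, and their matches are the same bases. Hsph1 differed in SOD1-WT glia as given above, and Hspd1 passed in no comparison.

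Small heat shock proteins hold unfolded proteins in a refoldable state, and 2 of the 3 moved in opposite directions in SOD1-WT glia. In that comparison 27% of all measured genes passed (14% higher and 13% lower). Hspb1 (HSP27) was at 11.70, 11.65 and 11.31 in nontransgenic glia, 11.02, 11.32 and 11.43 in SOD1-G93A glia, and 11.04, 11.01 and 10.75 in SOD1-WT glia. The SOD1-WT arrays lay below all nontransgenic ones, and the SOD1-G93A arrays overlapped both groups. Hspb1 fell by 0.62 ± 0.14 in SOD1-WT glia (1.53-fold lower, adjusted p = 0.00398), and gave -0.29 in SOD1-G93A glia (adjusted p = 0.226). Hspb8 (HSP22), which works with Bag3, was at 12.41, 12.20 and 12.32 in nontransgenic glia, 12.50, 12.63 and 12.59 in SOD1-G93A glia, and 12.72, 13.02 and 12.82 in SOD1-WT glia. The 3 groups did not overlap, with nontransgenic lowest and SOD1-WT highest. Hspb8 rose by 0.54 ± 0.11 in SOD1-WT glia (1.45-fold, adjusted p = 0.00158), and gave 0.26 in SOD1-G93A glia (adjusted p = 0.145). Both SOD1-WT calls held under all 19 alternatives (adjusted p up to 0.0232 for Hspb1 and 0.0116 for Hspb8).

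Between the lines 0 of 3 small heat shock proteins passed the adjusted threshold in the limma fit. An unadjusted p under 0.05 was found for 3 of 3, and for 2751 of all 9842 measured genes. The differences were 0.32 for Hspb1 (adjusted p = 0.145) and -0.28 for Hspb8 (adjusted p = 0.103). The latter passed with a variance trend and robust prior (adjusted p = 0.0361, alternatives to 0.311). Cryab (alpha B-crystallin), an astrocyte-rich small heat shock protein, lay at 11.38 to 11.57 in SOD1-WT and at 11.60 to 11.99 in nontransgenic glia, and the groups did not overlap. Its change of -0.30 in SOD1-WT glia missed the threshold (adjusted p = 0.0738) and passed under 3 of 19 alternatives (adjusted p 0.0333 to 0.297), while SOD1-G93A glia gave -0.01.

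Neither of the 2 measured mitochondrial chaperones passed, and 0 of 2 reached an unadjusted p of 0.05 in the limma fit. Hspa9 (mortalin) gave -0.04 in SOD1-G93A glia and 0.13 in SOD1-WT glia. Hspd1 (HSP60) was at 10.16 to 10.32 in the SOD1-G93A and nontransgenic arrays, at 10.38 and 10.28 in SOD1-WT replicates 1 and 2, and at 9.30 in SOD1-WT replicate 3. That array lay far below the other 8, and the change in SOD1-WT glia was -0.27 with it (adjusted p = 0.392) and 0.07 without it (adjusted p = 0.665). A second Hspd1 probe read 7.30 there, within the range of the other arrays.

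**Figure D3:**
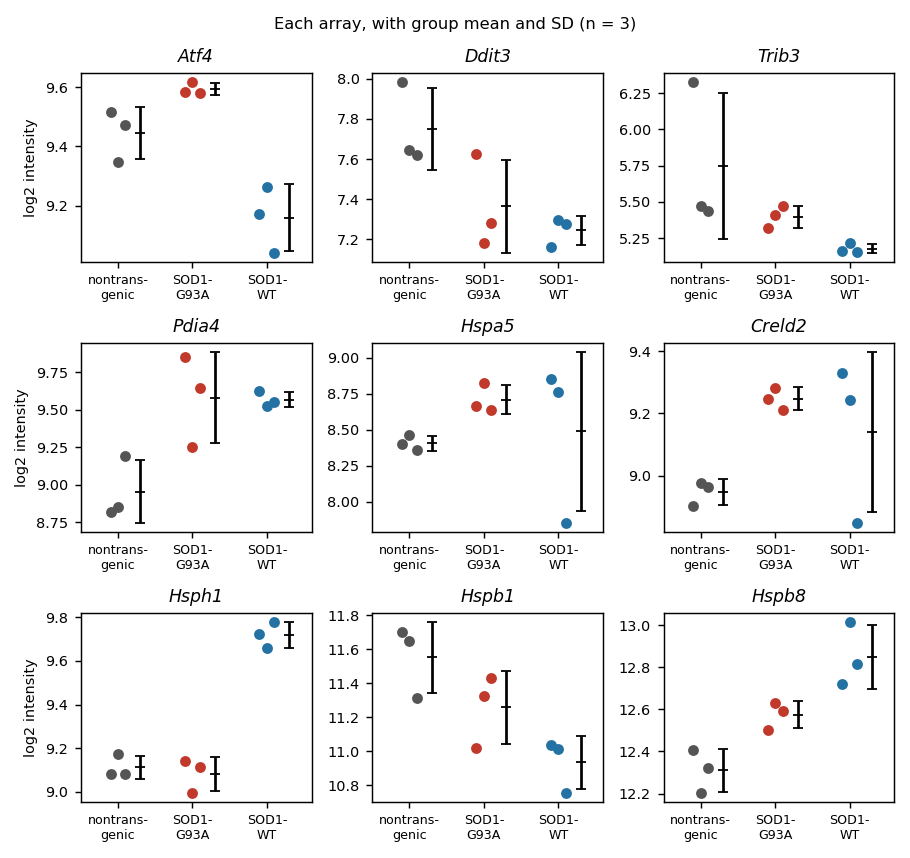
Log2 intensity of 9 genes on each array, with the group mean and SD (n = 3) beside the points; the y axes do not start at 0 and differ between panels. The groups do not overlap for Atf4 and Hspb8, Hsph1 is high in SOD1-WT glia alone, and SOD1-WT replicate 3 lies below its group for Hspa5 (7.85) and Creld2 (8.85).

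**Figure D4:**
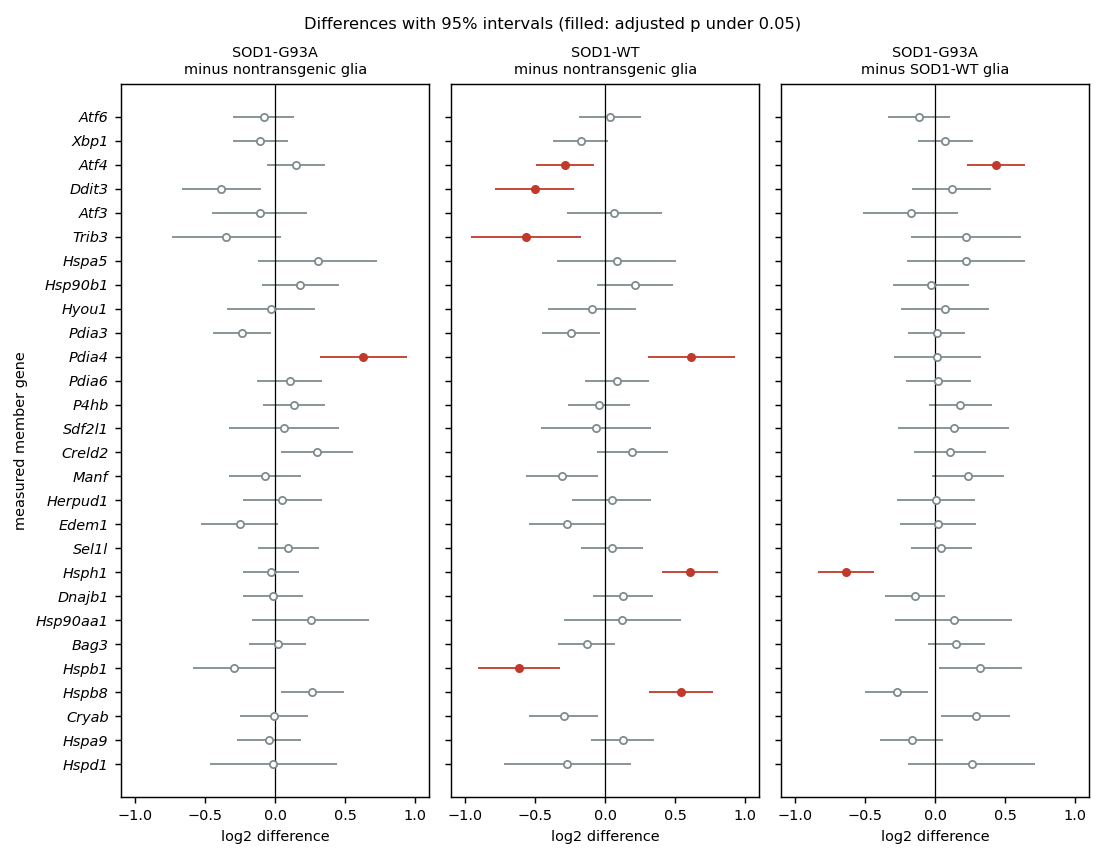
Log2 difference of each measured gene with its 95% interval in the 3 comparisons, filled where the adjusted p was under 0.05. Pdia4 is filled in the first panel, 7 genes in the second, and Atf4 (0.43) and Hsph1 (-0.64) in the third.

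The rest of both pathways was followed through 137 further listed genes, of which 129 had a probe and 111 were measured. In SOD1-G93A against nontransgenic glia, 5 were higher and 7 lower. In SOD1-WT glia 12 were higher and 13 lower, and between the lines 11 were higher and 6 lower in SOD1-G93A glia. Those are 12, 25 and 17 of 111, against 11.4%, 27% and 16.4% of all measured genes. The count in SOD1-G93A glia fell to 6 without SOD1-G93A replicate 2 or 3 and to 7 without nontransgenic replicate 1.

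Among the 25 measured kinases of eIF2alpha and targets of ATF4, 3 genes were higher and 4 lower in SOD1-G93A glia (28% of the list). That share was 11.4% over all measured genes. In SOD1-WT glia 4 were higher and 5 lower (36%, against 27% of all measured genes). Slc7a11, the cystine transporter that feeds glutathione synthesis, was at 7.10 ± 0.34 (SD, n = 3) in nontransgenic glia, 6.54 ± 0.17 in SOD1-G93A glia, and 4.84 ± 0.06 in SOD1-WT glia. It fell by 2.26 ± 0.15 (SE) in SOD1-WT glia (4.79-fold lower, adjusted p = 4.94e-08) and was 1.69 higher in SOD1-G93A glia than in SOD1-WT glia (adjusted p = 1.77e-06). Its change in SOD1-G93A glia was -0.57 (adjusted p = 0.0244). That call was lost with no filter and without SOD1-G93A replicate 2 or 3 or nontransgenic replicate 1 (adjusted p 0.00872 to 0.107 over 19 alternatives). Nupr1, a stress-induced chromatin protein, fell by 1.13 in SOD1-G93A glia and by 1.42 in SOD1-WT glia (adjusted p = 0.000441 and 1.79e-05). Ddit4, an inhibitor of mTORC1, fell by 0.71 in SOD1-G93A glia and by 0.67 in SOD1-WT glia (adjusted p = 0.0141 and 0.00987). The former call was lost without SOD1-G93A replicate 1 or 2, and both were lost with no filter (adjusted p = 0.0861 and 0.0596). Other genes of the list went up. Slc7a5, a transporter of large neutral amino acids, rose by 0.66 in SOD1-G93A glia (adjusted p = 0.00101), and Psat1, of serine synthesis, rose by 0.61 in SOD1-WT glia (adjusted p = 0.00126) and was 0.54 lower in SOD1-G93A glia than in SOD1-WT glia (adjusted p = 0.00485). Eif2ak1, the haem-regulated kinase of eIF2alpha, rose by 0.43 in SOD1-WT glia (adjusted p = 0.00315). Between the lines, Atf5 was 0.80 higher and the lipoprotein receptor Vldlr 1.00 lower in SOD1-G93A glia (adjusted p = 0.00134 and 0.00037).

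Among 39 measured co-chaperones and other heat shock genes, 8 were higher and 3 lower in SOD1-WT glia (28.2% against 27% of all measured genes), and 1 was higher and 3 lower in SOD1-G93A glia (10.3% against 11.4%). Both shares were near those of all genes. Hspa2, an HSP70 family member, was 1.17 higher in SOD1-WT glia (2.25-fold, adjusted p = 1.36e-06), and its 0.37 in SOD1-G93A glia (adjusted p = 0.0369) passed under 12 of 19 alternatives, with losses without nontransgenic replicate 1 or 3 or any single SOD1-G93A array. Dnaja4, an HSP40 protein, rose by 0.80 (adjusted p = 3.29e-05) and Stip1, the adaptor between HSP70 and HSP90, by 0.41 (adjusted p = 0.009) in SOD1-WT glia. Each of Hspa2, Dnaja4 and Stip1 was lower in SOD1-G93A glia than in SOD1-WT glia, by 0.80, 0.74 and 0.49 log2 (adjusted p = 0.000105, 0.000132 and 0.00457). Fkbp5, an HSP90 co-chaperone raised by glucocorticoids, fell by 0.60 in SOD1-G93A glia (adjusted p = 0.00261). Bag2, a co-chaperone of HSP70, changed by -0.47 there (adjusted p = 0.0231). The Bag2 call was lost with no filter and without nontransgenic replicate 1 or 2 or SOD1-G93A replicate 2 or 3. Hspa12b, an HSP70 relative known from endothelium, was not well above background on any SOD1-WT array and was at least 1.94-fold lower there than in nontransgenic glia (adjusted p = 1.3e-07), while its change in SOD1-G93A glia was -0.74 (adjusted p = 0.000162). The endothelial marker Cdh5 was at least 16.6-fold lower in SOD1-WT glia, each bound being set against the lowest signal among detected probes. Of the 3 measured endothelial markers, 1 was higher and 1 lower in SOD1-WT glia, with changes from -4.31 to 0.50 log2. Their part in the Hspa12b result was not tested.

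Among 21 measured genes of ER folding and translocation, 0 passed in SOD1-G93A glia in the limma fit (2 at an unadjusted p under 0.05). In SOD1-WT glia, where 27% of all measured genes passed (13% lower), 3 of the 21 genes were lower (14.3%). These were Pdia5 (-0.71, adjusted p = 0.00065), the prolyl isomerase Fkbp11 (-0.65, adjusted p = 0.00114) and the disulfide isomerase Txndc5 (-0.50, adjusted p = 0.00236). Serpinh1, the collagen chaperone HSP47, which was listed with the heat shock genes, fell by 0.52 in SOD1-WT glia (adjusted p = 0.00126). Beside them, the collagen genes Col1a1, Col1a2 and Col3a1 of the meningeal list were 2.91, 1.03 and 1.59 log2 lower in SOD1-WT glia, and their part in those 4 results was not tested. Of 12 measured genes of ER-associated degradation, Vcp, the ATPase that pulls proteins out of the ER, rose by 0.44 in SOD1-G93A glia (adjusted p = 0.00648) and was 0.41 above SOD1-WT glia (adjusted p = 0.00701). With scaling by array medians the former missed the threshold (adjusted p = 0.0504, the highest of 19 alternatives, whose lowest was 0.00126). The conjugating enzyme Ube2g2 gave -0.42 in SOD1-WT glia (adjusted p = 0.0473), which passed under 6 of 19 alternatives (adjusted p 0.0141 to 0.207) and was lost when any single array other than nontransgenic replicate 2 or SOD1-WT replicate 2 was left out. The 6 measured transducers of the ER membrane, such as the relatives of ATF6, passed in no comparison (1 at an unadjusted p under 0.05 in SOD1-G93A glia). Of 8 mitochondrial chaperones and proteases Htra2 alone passed, at -0.36 in SOD1-WT glia (adjusted p = 0.0318). The Htra2 call was lost without nontransgenic replicate 1 or 3 or SOD1-WT replicate 2 or 3. It was also lost with the authors' intensities, median scaling, no filter, array weights and only the 6 arrays compared.

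**Figure D5:**
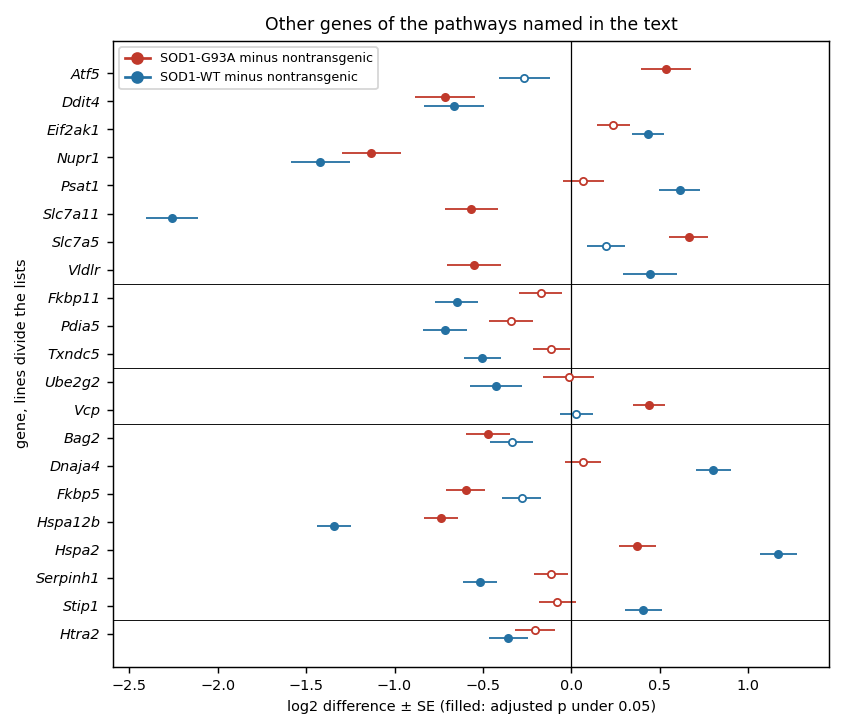
Log2 difference from nontransgenic glia, with its SE, of 21 further genes of the pathways in SOD1-G93A glia (red) and SOD1-WT glia (blue), filled where the adjusted p was under 0.05. The largest change is that of Slc7a11 in SOD1-WT glia (-2.26), and Nupr1 is lower in both lines.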

How the data were processed

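Total RNA of 9 glial cultures was amplified once with T7 polymerase, labelled with biotin and hybridised to single-colour Illumina bead arrays, per the labels' protocols. Per the file headers, the deposited raw table holds for each probe the mean bead intensity, a detection p-value, the bead count and the bead standard error. The authors' own normalised intensities were deposited as well, and BeadStudio is named in the submitters' processing notes (version not stated). Each array of that table was a straight line of the raw intensity, with the same mean of 204 on every array and values below 0. A genome build is not given in the sources used here.

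Raw intensities were background-corrected and quantile-scaled with neqc (limma 3.58.1, R 4.3.3, offset 16), and probes with a detection p under 0.01 on at least 3 of 9 arrays were kept, 13972 of 24613. One limma model was fitted to all 9 arrays with 3 groups and eBayes, Benjamini-Hochberg adjustment ran over all kept probes in each comparison, and the threshold was 0.05. The statistics were tested on simulated data with independent errors, which does not cover an array that stands apart from its group. Detection was 53.3 to 55.3% of probes per array with 34.8 to 35.7 beads a probe, and the number of arrays limits the precision. Symbols came from the platform annotation, updated by gene ID or accession where possible; 20984 probes had 1 symbol, 1 had several and 3628 had none. Alternatives were the authors' intensities, no background correction, median scaling, an offset of 50, other filters, a variance trend, array weights, fewer arrays, the replicate block, the mean over a gene's probes and leaving out each array.

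Described in full were genes past the threshold with groups that do not overlap, and the main stress markers whatever their values. Of each further pathway list up to 4 genes of smallest p per comparison were eligible, and other genes were named where a count was small or a replicate moved them. The members and all lists were chosen with earlier results of these data known. Promoter windows (250 bases before to 50 after the start) were taken from RefSeq for 33 of the 42 genes.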

Additional observations from a re-analysis of the deposited data

Results flagged for a closer look

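For Atf4 the change against nontransgenic glia differed between the lines by 0.43 log2 (SOD1-G93A minus SOD1-WT), tested directly as the contrast of SOD1-G93A with SOD1-WT glia (limma, adjusted p = 0.00675). It was 0.15 in SOD1-G93A glia and -0.29 in SOD1-WT glia, and the second Atf4 probe gave 0.28 for the same difference (adjusted p = 0.286). For Hsph1 that difference was -0.64 (adjusted p = 0.000234), with a change of -0.03 in SOD1-G93A glia and 0.61 in SOD1-WT glia. Nontransgenic arrays cancel out of both differences.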

How the results depend on the processing

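Of 2889 gene results under the alternatives, 2751 stayed on their side of the threshold, 108 calls were lost, 30 were gained and 0 called values turned sign. Those results cover the 28 genes, the further pathway genes that passed with the smallest p, Sod1 and Kdm5d. Values that stayed uncalled are among the 2751, which therefore does not measure how stable the calls were. The number of the 28 genes past the threshold in SOD1-G93A against nontransgenic glia was 1, against 0 with no filter, 2 with array weights, 2 with only the 6 arrays compared, and 0 to 3 when 1 array was left out. It was 0 without nontransgenic replicate 1 or 2 or SOD1-G93A replicate 3, and 3 without SOD1-WT replicate 3. The cause was not tested. In SOD1-WT against nontransgenic glia the count stayed between 5 and 9, and between the lines between 2 and 3. Deviations of same-numbered replicates from their group means correlated at -0.02 to 0.15, over 0.1 in 3 of 9 pairs. Different-numbered replicates were not compared, so these values cannot decide whether the numbers pair the cultures. With the replicate block the counts were 1, 6 and 2 of the 28 genes and 1526, 3633 and 2189 probes, against 1487, 3539 and 2102 without it. Under the other settings the probe counts ran from 1009 to 2087, 2823 to 3792 and 1534 to 2285. The further pathway genes in SOD1-G93A glia numbered 12, and 6 with no filter. Meningeal markers past the threshold in SOD1-G93A glia were 8, and 4 when detection on all 9 arrays was required. Genes near background, such as Manf and Atf6, and the 5 below the filter carry little signal.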
